A study of Mus musculus with 9 samples.

Results

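CTCF binding was described at the loci of 5 genes that arm cytotoxic T cells, Ifng, Gzmb, Gzma, Gzmk and Prf1, in naive mouse CD8+ T cells and after culture with cytokines. The loci were taken as 4 fixed windows of the mm9 genome, chr10:117750000-118050000 for Ifng, chr14:56750000-57050000 for Gzmb, chr13:113800000-114050000 for Gzma and Gzmk, and chr10:60650000-60850000 for Prf1. Every CTCF peak that overlapped a window was included, and peaks of different libraries that shared at least 1 bp were merged into a region. This gave 54 regions of 39574 on all chromosomes used, 17 in the Ifng window, 15 in the Gzmb window, 8 in the Gzma and Gzmk window and 14 in the Prf1 window. Regions are numbered in order along the chromosome within each window, so that Ifng 5 is the fifth region of the Ifng window.

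The assay was CUT&RUN, in which a nuclease held by an antibody to CTCF cuts out the DNA around the bound protein. Cells came from the spleen of mice carrying hCD2-Cre, a recombinase under regulatory elements of a lymphocyte gene, and Rosa26-lsl-GFP, a reporter that turns on where the recombinase has acted. Wild-type (WT) mice had intact Tcf1 and Lef1 genes, and DKO (labelled Tcf1-/-Lef1-/-) came from mice with both genes floxed. Naive cells were sorted as GFP+ TCRbeta+ CD62Lhi CD44lo-med CD8+ and the live cells were taken directly (0 h) or following culture for 72 h in IL-7 plus IL-15, so that each genotype had 2 CTCF libraries of naive (0 h) and 2 of cultured (72 h) cells, beside 1 IgG library of WT cells at 0 h. The age of the mice and the number of mice per library were not given in the labels, so p-values measure only the spread between these libraries, which may be technical. CTCF peaks do not show the level of any marker gene, so the labelled cell type was not checked here. The IgG list had 0 peaks in the 4 windows.

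CTCF is a zinc-finger protein that binds a long DNA motif, blocks the spread of enhancer action between domains and holds the bases of chromatin loops formed by cohesin. Ifng encodes interferon gamma, the main inflammatory cytokine of cytotoxic and Th1 cells, and CTCF sites around it are known to take part in the looping of the locus in T cells. Prf1 encodes perforin, which forms pores in the target cell, and the granzymes are serine proteases that enter through them. Naive CD8+ T cells hold these genes largely silent and turn them on as they become effector or memory cells, while TCF1 and LEF1 are known for upholding the naive and memory programmes.

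In the RefSeq gene table, built on GRCm38.p6, Iltifb and Il22, genes of the interleukin-22 family, lie on the low-coordinate side of Ifng and Dyrk2 follows on the other side. Gzmc, Gzmf and Gzmn, further granzymes, precede Gzmb, and Atp12a follows it. Gzma and Gzmk are direct neighbours, with Gpx8 before and Esm1 after them, and Prf1 lies between Adamts14 and Pald1. These names serve for the order of genes alone, since an annotation of mm9 was not used here and the position of a region relative to a gene was not determined.

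The bases just before the annotated start of 4 of the genes are shown because the windows were drawn around these genes. They are from RefSeq promoters of GRCm38.p6 at chr10:118440796-118441045, plus strand (Ifng), chr14:56262335-56262584, minus strand (Gzmb), chr13:113100982-113101231, minus strand (Gzma) and chr10:61297586-61297750, plus strand (Prf1), coordinates that cannot be set beside those of the mm9 peaks. Each is printed 5′ to 3′ on the strand of the gene, and capitals mark AGGNGGC, part of the core of the CTCF motif, on either strand.
Ifng: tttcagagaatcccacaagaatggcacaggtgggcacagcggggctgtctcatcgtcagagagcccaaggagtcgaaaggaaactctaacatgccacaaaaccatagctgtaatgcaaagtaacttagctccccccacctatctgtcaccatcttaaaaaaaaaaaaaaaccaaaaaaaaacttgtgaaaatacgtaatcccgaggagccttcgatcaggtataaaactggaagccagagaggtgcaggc
Gzmb: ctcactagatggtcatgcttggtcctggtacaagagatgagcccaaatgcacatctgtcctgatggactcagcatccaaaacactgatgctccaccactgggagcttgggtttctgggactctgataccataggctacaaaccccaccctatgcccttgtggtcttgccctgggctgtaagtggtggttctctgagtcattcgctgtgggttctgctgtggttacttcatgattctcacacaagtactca
Gzma: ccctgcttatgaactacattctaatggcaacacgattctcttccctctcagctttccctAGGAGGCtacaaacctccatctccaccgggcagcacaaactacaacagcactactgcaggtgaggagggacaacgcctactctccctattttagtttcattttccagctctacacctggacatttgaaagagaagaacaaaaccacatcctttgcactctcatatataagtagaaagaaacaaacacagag
Prf1: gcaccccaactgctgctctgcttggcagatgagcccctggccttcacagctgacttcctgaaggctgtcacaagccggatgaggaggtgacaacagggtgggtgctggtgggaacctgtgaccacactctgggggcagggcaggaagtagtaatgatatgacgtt

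All 5 genes had a RefSeq promoter. Among the 5, a match to AGGNGGC or its reverse complement GCCNCCT was found for Gzma alone in the first 250 bases. Of these bases, Prf1 has only the 165 before its annotated start printed. Over all 32851 promoters, 25% held such a match in 250 bases. This describes the letters in these bases and says nothing about whether CTCF was bound there.

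Peak lists at 72 h were shorter than those at 0 h, with 30309 to 32587 peaks per library at 0 h, 17335 and 26630 in cultured WT and 10339 and 16234 in cultured DKO. Read totals were not given, every CTCF list held only peaks of at least 4-fold enrichment, and an absent peak therefore shows only that none was called. The fold enrichment given for a region is the authors' value of its highest peak in that library, over local background. Median fold over a whole list was 9.78 to 10.4 at 0 h and 7.03 to 9.06 at 72 h, so folds at 72 h lie on a lower scale than those at 0 h.

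At 72 h a larger share of the regions at these cytotoxic loci had a CTCF peak than of all regions. WT libraries had a peak at 36 and 36 of the 54 regions at 0 h and at 32 and 43 at 72 h. DKO libraries had 38 and 43 at 0 h and 21 and 28 at 72 h. Over all 39574 regions, the share with a peak was 81.3% and 77.1% in naive WT and 42.8% and 65.9% at 72 h, against 66.7%, 66.7%, 59.3% and 79.6% of the 54. In DKO it was 75.7% and 78.5% at 0 h and 25.6% and 40.0% at 72 h over all regions, against 70.4%, 79.6%, 38.9% and 51.9% of the 54. The shares of the 54 regions were thus below the genome in naive WT and above it in all 4 libraries at 72 h. Regions were merged from the lists of both times. Those without a peak in any naive library lower the naive shares, and they were 11.1% of the 54 against 3.0% of all regions. With the count limited to regions found in both naive WT libraries, 71.9% in the windows had a peak in both cultured WT libraries, against 57.4% over all chromosomes. The same shares in DKO were 50% and 36.1%.

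**Figure D1:**
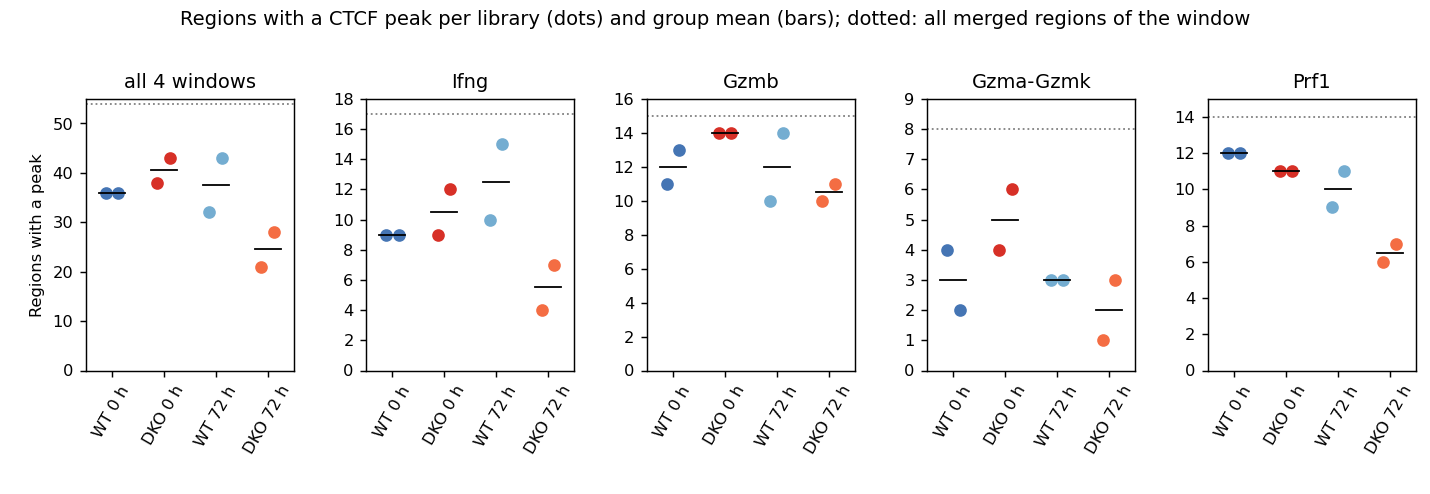
Number of regions with a CTCF peak (y axis) in each library, for the 4 windows together and for each window, with bars at group means and a dotted line at the number of merged regions. In the Ifng window the WT libraries lie at 9 and 9 at 0 h and at 10 and 15 at 72 h, while the DKO libraries lie at 9 and 12 and then at 4 and 7.

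These counts were compared between libraries by exact permutation, for which the smallest p the design allows is 0.0556, so that no comparison of counts could pass 0.05. The mean difference between 72 h and 0 h was -7.25 regions (exact two-sided permutation within genotype, 36 assignments, p = 0.222), and it was -3.92 when replicate 1 of cultured DKO was left out and -11.25 when replicate 2 of cultured WT was. DKO minus WT was -4.25 (exact permutation within time, p = 0.5), and it ranged from -7.75, leaving out replicate 2 of naive DKO, to -0.42, leaving out replicate 1 of cultured DKO. Leaving out replicate 2 of cultured WT gave -2.17, and leaving out that of cultured DKO gave -2.75. The change from 0 h to 72 h was 17.5 regions higher in WT, at 1.5, than in DKO, at -16 (exact permutation of genotype within time, p = 0.0556, 0.278 after Benjamini-Hochberg adjustment over 15 tests). With each list cut to its 10339 peaks of smallest p-value, so that all were as long as the shortest, it was 1 (exact permutation p = 0.833). Within a single genotype or time, the smallest exact permutation p is 0.333.

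The order of the times in these counts depended on the length of the lists. The common length of 10339 peaks is the whole of the shortest list, DKO 72 h replicate 1, weak peaks included, and only the stronger part of the naive lists, so what follows describes the lists and shows no change in binding. Among 26 regions left in the windows, 13, 13, 15 and 13 had a peak in WT replicates 1 and 2 and DKO replicates 1 and 2 at 0 h, and 19, 20, 21 and 18 at 72 h. As shares, these were 50% to 57.7% at 0 h and 69.2% to 80.8% at 72 h, where over all 15226 regions left the libraries had 67.5% to 67.6% at 0 h and 66.4% to 67.2% at 72 h. Every library at 72 h was above every library at 0 h in the windows, with a mean difference of 6 regions (exact permutation within genotype, p = 0.0556, the smallest this design allows). Most of it lay in the Gzmb window, with 4, 4, 6 and 4 regions at 0 h against 8, 9, 10 and 8 at 72 h. The Ifng window had 4, 3, 4 and 3 against 5, 5, 4 and 4, and the Prf1 window 4, 5, 4 and 5 against 4, 5, 6 and 4, with overlap between the times in both.

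**Figure D2:**
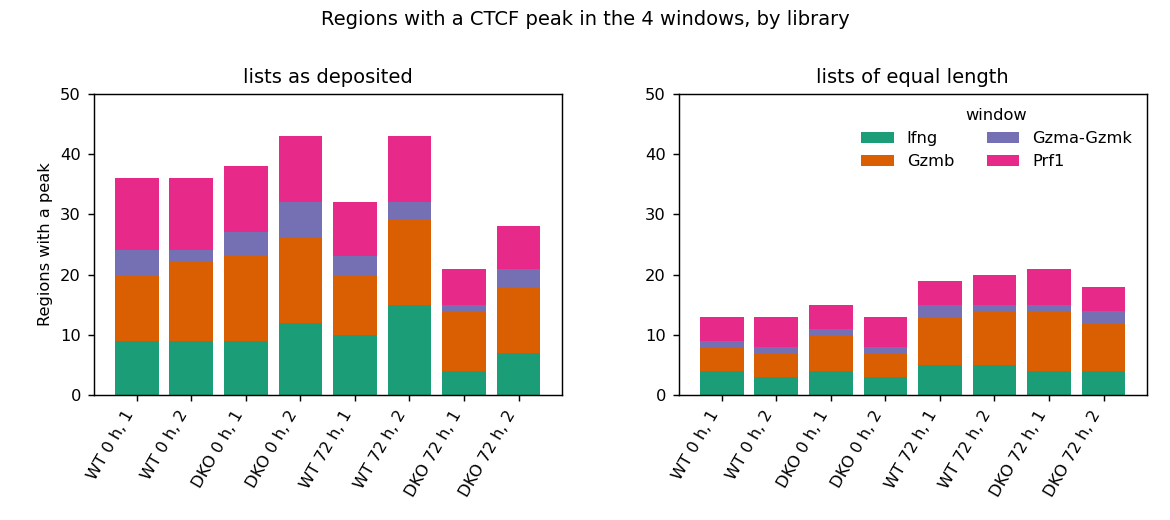
Number of regions with a peak (y axis, stacked by window) in each library, from the lists as deposited on the left and from lists cut to the 10339 strongest peaks on the right. At equal length the 0 h libraries reach 13 to 15 regions and the 72 h libraries 18 to 21.

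A backbone of 16 regions had a peak in all 8 libraries, 29.6% of the 54 against 24.2% of all regions. It comprised 6 regions in the Gzmb window, 6 in the Prf1 window, 3 in the Ifng window and 1 in the Gzma and Gzmk window. At the other end, 7 regions had a peak in 1 library, 13.0% against 14.7%. Regions of the windows had a median width of 788.5 bp, against 747 bp over all regions. They were densely placed: the Ifng and Gzmb windows held 17 and 15 regions, where the median over 8776 tiles of 300 kb across the chromosomes was 2, the Gzma and Gzmk window held 8, where the median of 250 kb tiles was 1 and 84.2% of tiles held as many or fewer, and the Prf1 window held 14, where the median of 200 kb tiles was 1.

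**Figure D3:**
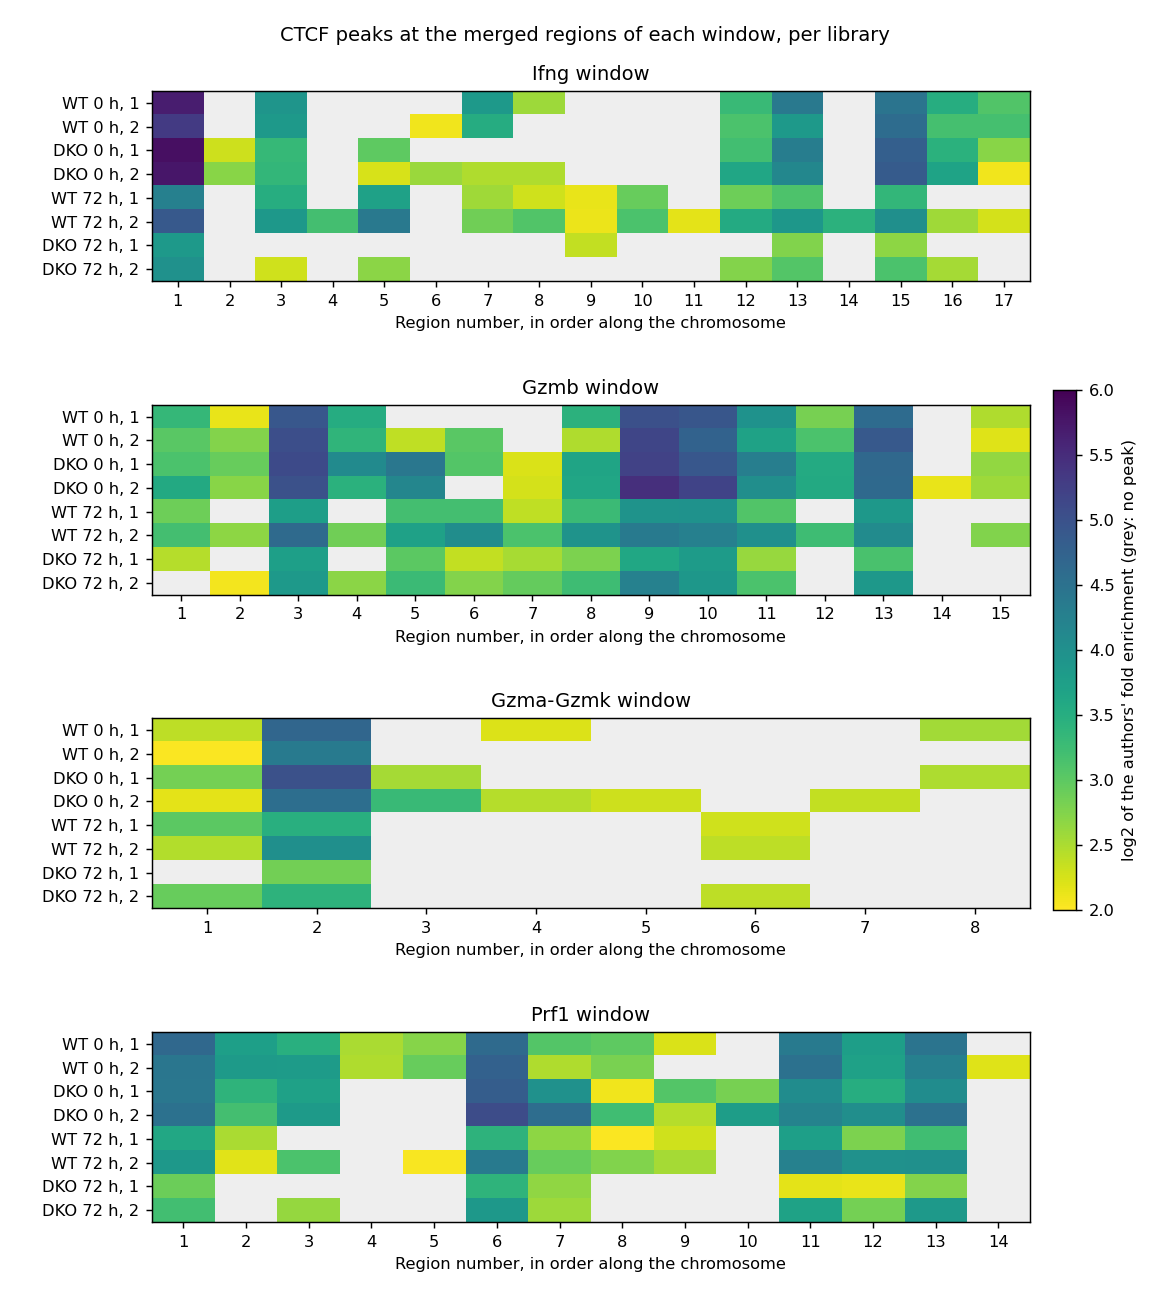
Fold enrichment of CTCF at each region (columns, numbered along the chromosome) in each library (rows), on a log2 colour scale, with grey where no peak was called. In the Ifng window the columns from 4 to 11 are mostly grey in the naive libraries, while columns 1, 13 and 15 are filled in all 8.

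The Ifng window had 3 regions with a peak in all 8 libraries, near its ends and between them, and each had a lower mean fold after culture in both genotypes. Ifng 1 (chr10:117807275-117808441) had the highest fold of the 4 windows in each naive library, with folds of 51.3 and 39.7 in naive WT and 57.3 and 54.0 in naive DKO, and 19.1 and 29.5 in cultured WT and 14.4 and 15.8 in cultured DKO. Every naive library was above every 72 h library there. Over all chromosomes, both naive WT folds were above both cultured WT folds at 75.7% of the regions found in all 4 WT libraries. Ifng 15 (chr10:118029395-118030343), near the other end, had 22.0 and 23.9 in naive WT and 27.7 and 28.9 in naive DKO, then 10.2 and 16.1 in cultured WT and 6.38 and 8.75 in cultured DKO. Ifng 13 (chr10:117982999-117984010) had 20.8 and 14.2, 19.7 and 17.7, 8.67 and 14.7, and 6.78 and 8.41 in the same order. The summits of these 3 regions lay within 128, 194 and 128 bp across the 8 libraries, so the libraries shared the position of the site as well as its presence.

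The part of the Ifng window between Ifng 3 and Ifng 12 held peaks called in WT cells at 72 h and not before culture. At Ifng 5 (chr10:117877532-117878146), naive WT libraries had no peak, naive DKO libraries had folds of 7.94 and 4.74, and WT libraries at 72 h had 13.1 and 20.9. Among cultured DKO libraries, replicate 1 had no peak and replicate 2 had a fold of 6.46. Both WT folds at 72 h were thus above every other fold called there, and the libraries without a peak had no fold to compare. With lists of equal length it was present in both WT libraries at 72 h and in no other library.

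Further regions of this part were found in cultured WT with weaker peaks. Ifng 10 (chr10:117917892-117918296) had folds of 7.64 and 8.75 in cultured WT and no peak in the other 6 libraries. Ifng 9 (chr10:117907528-117907900) had 4.39 and 4.33 in WT and 5.18 in DKO replicate 1 at 72 h, near the lowest fold kept in the lists, and nothing at 0 h. Ifng 4, Ifng 11 and, outside this part, Ifng 14 had a peak in WT 72 h replicate 2 alone, with folds of 9.11, 4.48 and 10.8. In all, 5 of the 17 regions of the Ifng window had no peak in any naive library. Over the 4 windows this was true of 6 regions (11.1%), against 3.0% of all regions, and 3 of the 5 in the Ifng window rest on WT 72 h replicate 2 alone.

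Other regions of the Ifng window were found in WT and lacking or weaker in DKO. Ifng 3 (chr10:117855592-117856768) had folds of 15.0 and 14.4 in naive WT and 9.94 and 10.2 in naive DKO, then 11.3 and 14.5 in cultured WT and, in cultured DKO, no peak in replicate 1 and 4.90 in replicate 2. All 4 WT folds were above every DKO fold called there, and DKO replicate 1 at 72 h had no fold to compare. With lists of equal length, all 4 WT lists held Ifng 3 and the DKO lists did not, the pattern of smallest p in a two-sided Fisher's exact test of 4 against 4 (p = 0.0286, and 1 after Benjamini-Hochberg adjustment over 15226 regions). Of those 15226 regions, 84 had an unadjusted p under 0.05 in this test for genotype. Ifng 3 and its test were singled out after the values were seen. Ifng 7 (chr10:117898298-117899199) had 14.3 and 11.5 in naive WT, only 5.59 in DKO replicate 2 at 0 h, 5.94 and 7.32 in cultured WT, and no peak in cultured DKO. Ifng 8 (chr10:117906023-117906485) had 6.01 in WT replicate 1 and 5.55 in DKO replicate 2 at 0 h, 4.89 and 8.52 in cultured WT, and none in cultured DKO.

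The reverse order in naive cells was seen at Ifng 2 (chr10:117848369-117848879), with 4.93 and 6.55 in naive DKO and no peak in any other library. Ifng 17 (chr10:118042356-118042885) had 8.47 and 9.05 in naive WT and 6.52 and 4.25 in naive DKO, and at 72 h 4.76 in WT replicate 2 alone. Ifng 12 and Ifng 16 had peaks in all 4 naive libraries at folds between 8.80 and 12.9, with group ranges that overlapped, and Ifng 6 had weak peaks in 1 naive library of each genotype (4.24 and 6.06). For the window as a whole, WT libraries had a peak at 9 and 9 regions at 0 h and 10 and 15 at 72 h. DKO libraries had 9 and 12 at 0 h and 4 and 7 at 72 h, with no overlap of the times in either genotype. The difference between these changes was 8.5 regions (exact permutation, p = 0.167, adjusted p = 0.556 over 15 tests). As shares of the window, WT had 52.9% and 52.9%, then 58.8% and 88.2%, against 81.3%, 77.1%, 42.8% and 65.9% of all regions. DKO had 52.9% and 70.6%, then 23.5% and 41.2%, against 75.7%, 78.5%, 25.6% and 40.0% of all regions. At 72 h the DKO shares were thus near those of all regions.

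Every library had a peak at 10 or more of the 15 regions of the Gzmb window. This was 66.7% or more, where the shares of all regions ran from 25.6% to 81.3%. Gzmb 9 (chr14:56922530-56923779) had the highest fold of the window in each naive library, with folds of 32.4 and 35.9 in naive WT and 37.2 and 44.2 in naive DKO, and 15.4 and 20.7 in cultured WT and 12.3 and 19.0 in cultured DKO. Gzmb 3 (chr14:56822464-56824478, 30.0 to 34.2 at 0 h and 13.4 to 24.6 at 72 h), Gzmb 10 (chr14:56932720-56933940, 26.8 to 36.7 and 14.0 to 19.1) and Gzmb 13 (chr14:56994318-56995189, 24.3 to 29.4 and 8.86 to 16.8) were also found in all 8 libraries. At these 4 regions the naive libraries lay above the 72 h libraries without overlap. This order was common, since both naive WT folds were above both cultured WT folds at 75.7% of 16275 regions over all chromosomes. The summits of Gzmb 3 spread over 1181 bp, so its folds may not all belong to the same site. Gzmb 11 (chr14:56970262-56971657) was found in all 8 as well, with 15.6 and 13.0 in naive WT and 19.5 and 16.2 in naive DKO, then 8.46 and 15.9 in cultured WT and 6.16 and 8.73 in cultured DKO.

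Gzmb 5 (chr14:56880699-56881558), described here after its values were seen, was nearly absent from naive WT cells and strong in naive DKO cells. Replicate 1 of naive WT had no peak and replicate 2 had a fold of 5.21, against 21.3 and 17.8 in naive DKO. At 72 h it was found in all 4 libraries, at 9.14 and 13.2 in WT and 8.01 and 9.71 in DKO. Both genotypes therefore had a peak after culture. Before culture both DKO folds were above that of WT replicate 2, and WT replicate 1 had no fold to compare. The summits of the 7 libraries with a peak fell within 53 bp.

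The next 3 regions differed in which naive libraries had a peak. Gzmb 6 (chr14:56894676-56895287) had a fold of 8.15 in WT replicate 2 and 8.37 in DKO replicate 1 at 0 h, and was found in all 4 libraries at 72 h (9.14 and 16.5 in WT, 5.18 and 6.69 in DKO). Gzmb 7 (chr14:56902477-56903630) had no peak in naive WT cells, 4.67 and 4.80 in naive DKO cells, and 5.20 and 8.78 in cultured WT and 5.73 and 7.70 in cultured DKO. Gzmb 8 (chr14:56914993-56916677) had 10.8 and 5.54 in naive WT and 12.7 and 12.5 in naive DKO, then 9.64 and 15.4 in cultured WT and 6.88 and 9.48 in cultured DKO. From Gzmb 5 to Gzmb 8, neighbouring summits were 13.9, 8.10 and 12.6 kb apart. Every 72 h library had a peak at each of these 4 neighbours, and so did naive DKO replicate 1. Naive DKO replicate 2 lacked a peak at Gzmb 6 alone, and naive WT replicate 2 lacked one at Gzmb 7 alone. Naive WT replicate 1 had a peak at Gzmb 8 alone.

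With lists of equal length, Gzmb 8 was held by all 4 lists of cultured cells and by none of the naive lists. For this pattern Fisher's exact test of 4 against 4 gave p = 0.0286, and 0.912 after Benjamini-Hochberg adjustment over 15226 regions, so it did not pass. Of those regions, 477 had an unadjusted p under 0.05 in this test for time. The summits of Gzmb 8 spread over 861 bp, and that of WT 0 h replicate 2 stood apart from the others. At equal length Gzmb 5 was found in all 4 libraries at 72 h and in DKO replicate 1 at 0 h.

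The remaining Gzmb regions had no peak in part of the 72 h libraries. Gzmb 12 (chr14:56987478-56988109) had 7.06 and 8.80 in naive WT and 11.8 and 11.9 in naive DKO, and at 72 h only 9.48 in WT replicate 2. Gzmb 15 (chr14:57017062-57017474) had 5.55 and 4.58 in naive WT and 6.28 and 6.02 in naive DKO, and at 72 h 6.75 in WT replicate 2. Gzmb 1, Gzmb 2 and Gzmb 4 were found in all 4 naive libraries at folds from 4.37 to 17.0, and Gzmb 14 in DKO 0 h replicate 2 alone (4.40). The number of regions with a peak was 11 and 13 in naive WT and 14 and 14 in naive DKO, and 10 and 14 in cultured WT and 10 and 11 in cultured DKO. As shares of the window, WT had 73.3% and 86.7%, then 66.7% and 93.3%, against 81.3%, 77.1%, 42.8% and 65.9% of all regions. DKO had 93.3% and 93.3%, then 66.7% and 73.3%, against 75.7%, 78.5%, 25.6% and 40.0% of all regions.

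The Gzma and Gzmk window had the fewest regions of the 4, and 1 of them had a peak in all 8 libraries. Gzma-Gzmk 2 (chr13:113825021-113827075) had folds of 25.7 and 20.6 in naive WT and 32.1 and 23.4 in naive DKO, and 11.2 and 16.1 in cultured WT and 7.25 and 10.7 in cultured DKO. Every naive library was above every 72 h library, an order that 75.7% of shared regions over all chromosomes had in WT. Gzma-Gzmk 1 (chr13:113803313-113803830) went the other way in WT cells, from 5.30 and 4.07 at 0 h to 8.08 and 5.51 at 72 h, and had 7.12 and 4.49 in naive DKO and 7.65 in DKO replicate 2 at 72 h. It was the only region of the 4 windows with both WT libraries at 72 h above both at 0 h among 23 regions found in all 4 WT libraries, against 1.22% of such regions over all chromosomes.

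Its other regions were weak and found in few libraries. Gzma-Gzmk 3 (chr13:113836514-113837035) had peaks in naive DKO cells alone, with folds of 5.79 and 9.78. Gzma-Gzmk 6 (chr13:113910510-113910884) had peaks at 72 h alone, at 4.89 and 5.29 in WT and 5.24 in DKO replicate 2. The other 4 regions had 1 or 2 naive libraries each, with folds from 4.65 to 5.89 and no peak at 72 h. The number of regions with a peak was 4 and 2 in naive WT and 4 and 6 in naive DKO, then 3 and 3 in cultured WT and 1 and 3 in cultured DKO. Naive DKO libraries lay above both groups at 72 h, and the other groups overlapped. As shares of the window, WT had 50% and 25%, then 37.5% and 37.5%, against 81.3%, 77.1%, 42.8% and 65.9% of all regions. DKO had 50% and 75%, then 12.5% and 37.5%, against 75.7%, 78.5%, 25.6% and 40.0% of all regions.

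In the Prf1 window, libraries had a peak at 12 and 12 of its 14 regions in naive WT and 11 and 11 in naive DKO, and at 9 and 11 in cultured WT and 6 and 7 in cultured DKO. As shares, WT had 85.7% and 85.7%, then 64.3% and 78.6%, against 81.3%, 77.1%, 42.8% and 65.9% of all regions. DKO had 78.6% and 78.6%, then 42.9% and 50%, against 75.7%, 78.5%, 25.6% and 40.0% of all regions. Over all regions the share was thus also lower at 72 h, and lower in cultured DKO than in cultured WT. The mean difference was -3.25 regions for 72 h minus 0 h and -2.25 for DKO minus WT, each at the smallest exact permutation p of the design (0.0556, adjusted p = 0.278 over 15 tests). At equal list length each was 0.25 (exact permutation p = 1 for each).

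Sites found in all 8 libraries lined the Prf1 window. Prf1 6 (chr10:60738155-60739111) had the highest mean fold of the window in both naive groups, with folds of 24.6 and 27.1 in naive WT and 28.1 and 33.5 in naive DKO, and 10.6 and 20.5 in cultured WT and 10.6 and 14.6 in cultured DKO. Prf1 1 (chr10:60662032-60662850) had 21.3 to 24.98 at 0 h and 7.44 to 14.6 at 72 h, Prf1 12 (chr10:60804022-60804885) had 11.4 to 16.2 and 4.38 to 15.7, and Prf1 13 (chr10:60806627-60807479) had 16.7 to 22.7 and 6.72 to 15.9. Prf1 11 (chr10:60798224-60799986) had 20.6 and 22.7 in naive WT and 16.6 and 18.5 in naive DKO, then 13.4 and 18.9 in cultured WT and 4.50 and 13.0 in cultured DKO. At Prf1 11 the WT libraries were above the DKO libraries at both times.

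Prf1 7 (chr10:60759634-60760844) was also found in all 8 libraries but stood out in naive DKO cells. It had folds of 8.41 and 5.54 in naive WT and 15.7 and 23.8 in naive DKO, a mean of 6.98 ± 2.03 (SD, n = 2) against 19.7 ± 5.72 (n = 2). At 72 h the folds were 6.39 and 7.64 in WT and 6.31 and 5.999 in DKO. The naive DKO libraries thus lay above all 6 others, which spanned 5.54 to 8.41.

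**Figure D4:**
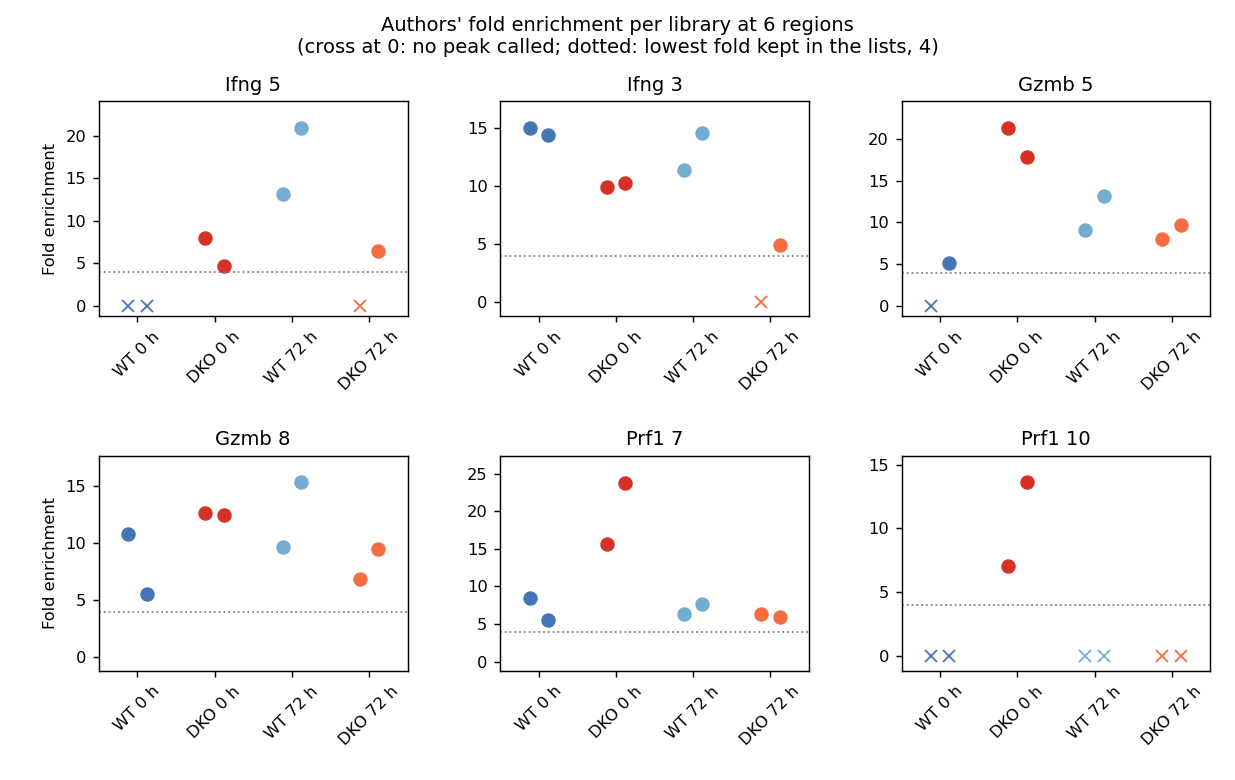
Fold enrichment (y axis) in each library at 6 regions, with a cross at 0 where no peak was called and a dotted line at the lowest fold kept in the lists. At Gzmb 5, Prf1 7 and Prf1 10 the naive DKO libraries lie above the naive WT libraries, and at Ifng 5 the WT libraries at 72 h reach 13.1 and 20.9.

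Prf1 10 (chr10:60796969-60798161), directly before Prf1 11, had peaks in naive DKO cells alone, with folds of 7.05 and 13.6. The reverse held at Prf1 4 (chr10:60694518-60694898), found in naive WT cells alone at 5.71 and 5.54, and at Prf1 5 (chr10:60695583-60696340), with 6.60 and 7.64 in naive WT cells and 4.12 in WT replicate 2 at 72 h. These neighbours, with summits 1.38 kb apart, were the regions of the 4 windows that both naive WT and neither naive DKO library had. Prf1 2 (chr10:60674253-60675218) had 13.3 and 14.2 in naive WT and 10.6 and 9.20 in naive DKO, 5.69 and 4.51 in cultured WT, and no peak in cultured DKO.

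Prf1 8 (chr10:60768745-60769829) and Prf1 9 (chr10:60790094-60791103) were likewise missing from cultured DKO. Prf1 8 had 7.96 and 7.003 in naive WT and 4.25 and 9.39 in naive DKO and 4.08 and 6.79 in cultured WT. Prf1 9 had 4.69 in naive WT replicate 1 alone of its pair, 8.37 and 5.48 in naive DKO, and 4.89 and 5.80 in cultured WT. Prf1 3 was found in all 4 naive libraries (11.1 to 14.1) and in replicate 2 of each genotype at 72 h (8.75 and 6.23), and Prf1 14 in WT 0 h replicate 2 alone (4.56).

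Counted over the windows, naive DKO cells had more regions of their own than naive WT cells, where over all regions the order was the reverse. Both naive DKO libraries and neither naive WT library had a peak at 5 of the 54 regions (9.26%), namely Ifng 2, Ifng 5, Gzmb 7, Gzma-Gzmk 3 and Prf1 10, against 2.73% of all regions. In the other direction there were 2 (3.70%), Prf1 4 and Prf1 5, against 4.88%. Without DKO 0 h replicate 1 the first count was 8, and at equal list length each was 1. At equal length these were Ifng 16 for DKO and Ifng 3 for WT, neither of them among the regions just named. Among the 29 regions found in all 4 naive libraries, both DKO folds were above both WT folds at 9 (31.0%, against 28.2% of 24438 such regions) and below them at 4 (13.8%, against 15.0%), shares near those of all regions. The higher ones were Ifng 1, Ifng 15, Prf1 6, Prf1 7 and Gzmb 8, 9, 11, 12 and 15, and the lower ones Ifng 3, Ifng 17, Prf1 2 and Prf1 11. With folds divided by the median of their list the counts were 7 and 5, against 22.7% and 19.3%.

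At 72 h the specific regions were all on the side of WT, and over all chromosomes 2521 were on that side and 12 on the side of DKO. Both cultured WT lists held 6 regions that the cultured DKO lists lacked (11.1%), Ifng 7, Ifng 8, Ifng 10, Prf1 2, Prf1 8 and Prf1 9, against 6.37% of all regions. None of the 54 had the reverse pattern, which 0.0303% of all regions had. The WT count was 13 without WT 72 h replicate 1, 11 without DKO 72 h replicate 2 and 2 at equal list length. Those 2 were Ifng 3 and Ifng 5, neither of them among the 6 named here.

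After culture of WT cells most naive sites of these loci still had a peak. Of the 32 regions found in both naive WT libraries, 23 (71.9%) were also held by both cultured WT lists, against 57.4% of 28355 such regions over all chromosomes, and 1 (Prf1 4, 3.13%) had a peak in neither, against 18.1%. The latter was 1.85% of the 54, against 13.0% of all regions, and the count was 9 without WT 72 h replicate 2, 3 without either WT 0 h replicate and 0 at equal list length. In the other direction, 5 regions (9.26%), Ifng 5, Ifng 9, Ifng 10, Gzmb 7 and Gzma-Gzmk 6, were found in both WT libraries at 72 h and neither at 0 h, against 0.576% of all regions. The count was 8 without WT 72 h replicate 1 and 5 at equal list length. At equal length the regions were Ifng 5, Gzmb 5, Gzmb 6, Gzmb 8 and Gzmb 11, so only Ifng 5 had the pattern in both settings. Fold enrichment was lower in both 72 h libraries than in both 0 h libraries at 14 of the 23 shared regions (60.9%), against 75.7%.

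A smaller share of naive sites was held by both cultured lists in DKO than in WT. This was 50% against 71.9% in the windows and 36.1% against 57.4% over all chromosomes. Of the 36 regions found in both naive DKO libraries, 18 (50%) were also held by both cultured DKO lists, against 36.1% of 27186 such regions, and 9 (25%) by neither, against 42.3%. These 9, or 16.7% of the 54 against 29.1% of all regions, were Ifng 2, Ifng 17, Gzmb 12, Gzmb 15, Gzma-Gzmk 3, Prf1 2, Prf1 8, Prf1 9 and Prf1 10. Their number was 16 without DKO 0 h replicate 1, 17 without DKO 72 h replicate 2 and 0 at equal list length. No region was found in both DKO libraries at 72 h and neither at 0 h, against 0.116% of all regions, and 2 were at equal list length. The WT and DKO comparisons over time use separate libraries.

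A test per region did not single out any of the 54. Fisher's exact test of presence, 4 libraries against 4, gave 0 of 39574 regions with a Benjamini-Hochberg adjusted p under 0.05 for time and 0 for genotype, and 3004 and 202 with an unadjusted p under 0.05. Of the 54 regions 0 reached an unadjusted p under 0.05 in either test, the smallest being 0.143. The smallest p that Fisher's exact test can give for 4 libraries against 4 is 0.0286. For time, the adjusted p at that value was 0.376. The adjustment can be passed only where a large part of all regions reach that smallest p. A lack of regions that passed therefore does not show a lack of difference.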

How the data were processed

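CTCF CUT&RUN was measured in 8 libraries, 2 in each of 4 groups, beside 1 IgG library. Reads were processed with FastQC, Bowtie2 2.2.5 and MACS2 2.1.1 on mm9, per the submitters' processing notes. The control used for peak calling, its thresholds and the read depth are not given in the sources used here, so no interval from depth could be set. Each library has its own list, and replicates were not pooled. The fold enrichment of each peak is the authors' deposited ratio over local background. The −log10 p and −log10 q of each peak are the authors' deposited values, as is the summit position within each peak. A difference in list length or depth between groups affects which peaks are present.

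Peaks on the 19 autosomes and X were merged across the 8 lists at 1 bp of overlap, which left out 5 peaks on other chromosomes. A region had the fold of its highest peak in a library. Presence per library was compared by exact permutation over libraries, adjusted with Benjamini-Hochberg over 15 tests, and per region with Fisher's exact test adjusted over all regions, at a threshold of 0.05. The windows, lists and tests were chosen with earlier results of these data known. Named by rule in each window were regions found in all 8 libraries, the region of highest mean fold and every region specific to a group. The others, Gzmb 5 and Ifng 3 among them, were named after their values were seen. Alternatives were lists of equal length, a −log10 q minimum of 5, an overlap of 50% of the shorter peak, summits within 100 bp, windows extended by 100 kb, folds over the median of the list, each replicate left out and a replicate block. The number of peaks in place of regions was added after seeing the data. The merging and tests were tested on simulated data. Python 3.11.15, pandas 2.3.3, numpy 2.4.6, SciPy 1.17.1 and matplotlib 3.10.9 were used.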

Additional observations from a re-analysis of the deposited data

Results flagged for a closer look

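In the Ifng window the number of regions with a peak moved in opposite directions in the genotypes between 0 h and 72 h, up in both WT libraries and down in both DKO libraries. The changes differed by 8.5 regions (exact permutation p = 0.167, adjusted p = 0.556 over 15 tests). Over all regions the share with a peak was lower at 72 h in both genotypes. In cultured DKO it was 25.6% and 40.0%, against 23.5% and 41.2% in this window. At equal list length the DKO counts did not fall, with 4 and 3 at 0 h and 4 and 4 at 72 h. The WT counts were 4 and 3, then 5 and 5.

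The fold enrichment of Gzmb 5 was higher in both WT libraries at 72 h, with a mean of 11.2 (n = 2), than in the naive WT libraries, while both DKO libraries at 72 h were below both naive DKO libraries. Prf1 9 had a mean of 5.35 (n = 2) in WT at 72 h, above the naive WT libraries, and no peak in DKO at 72 h, where both naive DKO libraries had one. The differences at Gzmb 5 and Prf1 9 were not tested, and naive WT libraries without a peak were taken as lower.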

How the results depend on the processing

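With lists of equal length, 72 h minus 0 h in regions with a peak was 6 over the 4 windows, 1 for Ifng, 4.25 for Gzmb, 0.5 for Gzma-Gzmk and 0.25 for Prf1, and DKO minus WT was 0.5 over the 4 windows and 0.25 for Prf1, all opposite in sign to the values from full lists. For Prf1 the WT change minus the DKO change was -0.5. Fewer peaks enter these lists. For Gzma-Gzmk, DKO minus WT was -1 with windows extended by 100 kb.

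Of regions specific to a group, equal length gave 1 for WT against DKO and 1 for DKO against WT at 0 h, 2 for WT against DKO at 72 h, 0 for WT at 0 h against 72 h, 0 for DKO at 0 h against 72 h and 2 for DKO at 72 h against 0 h. Summits within 100 bp gave 1, 3, 2 for DKO against WT at 72 h and 2 for WT at 0 h against 72 h. For WT against DKO at 0 h, −log10 q of at least 5 gave 1 and extended windows 4, and extended windows gave 3 for WT at 0 h against 72 h. On folds over the median of the list, 2 regions were higher in WT at 72 h than at 0 h. The cause was not tested.

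With each replicate left out in turn, 72 h minus 0 h ranged from -11.25 to -3.92 over the 4 windows and -2.75 to 0.92 for Ifng, and DKO minus WT from -7.75 to -0.42 over the 4 windows, -0.42 to 1 for Gzmb and -0.33 to 1.33 for Gzma-Gzmk. Specific regions ranged from 5 to 8 for DKO against WT at 0 h, 6 to 13 for WT against DKO at 72 h, 1 to 9 for WT at 0 h against 72 h, 5 to 8 for WT at 72 h against 0 h, 10 to 17 for DKO at 0 h against 72 h and 0 to 1 for the reverse.

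The labels do not say whether replicate numbers pair the libraries. Deviations of same-numbered libraries correlated at 0.0147 to 0.0423 over 9591 regions, which cannot show whether they shared an animal or day. With a replicate block (exact permutation, smallest p 0.125) 72 h minus 0 h was -7.25 regions with p = 0.375, and DKO minus WT was -4.25 with p = 0.5. Of 300 recomputed values, 15 had the opposite sign, 30 moved past the limits set and 255 kept their direction and side of the threshold or stayed within the limits set for counts. Depth is unknown, and 2 libraries per group limit every comparison.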
